A study of Dimocarpus longan with 9 samples.

Results

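The MYB-related genes of longan were followed through 9 tissues. They are the genes that the study's list of transcription factors gives the type MYB-related, as distinct from the type MYB, and they were matched by gene ID, ignoring case, to the table of expression values. The list has 66 such genes, and 59 of them were matched among the 30014 genes of the table. The other 7 were not analysed here. No expression value was used to choose them.

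MYB proteins bind DNA through imperfect repeats of a helix-turn-helix fold. The MYB type of plants mostly carries a pair of these repeats, while MYB-related proteins usually carry a single or partial repeat. In Arabidopsis the MYB-related proteins include CCA1 and LHY, which form the morning part of the circadian clock, and the small proteins CAPRICE and TRIPTYCHON, which lack an activation domain and set the pattern of root hairs and trichomes. In snapdragon, RADIALIS and DIVARICATA shape the dorsal and ventral parts of the flower. The longan genes carry only ID numbers in the files, so none of them is assigned here to one of these proteins. Of the 59 genes, the study's tables describe domains for 2: Dlo_012387.1 has a SANT/Myb domain and a chromatin binding term, and Dlo_015352.1 has a Myb domain.

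The tissues were the seed, pulp, pericarp (peel) and young fruit, the flower and flower bud, and the leaf, stem and root of the cultivar “SJM” (sijimi), which flowers and fruits all year, with 1 library per tissue, no treatment named in the labels, and plant age and number not given there. The study used these libraries to improve gene annotation and to compare organs. Values are FPKM, fragments scaled to gene length and to the size of the library, so levels can be set side by side between genes. With 1 library per tissue there was no replicate error and no test, so each difference compares those libraries, and fewer cells of a type cannot be told apart from less RNA per cell.

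Relative to root, the depth read from the steps of low values ranged from 0.922 in pulp to 1.46 in leaf. Pulp stood apart with a median of 1.02 FPKM over all genes, against 2.18 to 4.15 FPKM in the other 8 tissues. Over 12039 genes above 1 FPKM in every tissue, the median level of a library lay between -0.25 (pulp and flower) and 0.27 (young fruit) from the mean on the log2 scale, and changes are therefore also given after dividing by this factor (scaled libraries). The tissue labels could be checked only through other types of the list. The 6 YABBY genes, which act in lateral organs of the shoot, summed to 5.33 FPKM in root and 72.5 to 568 FPKM elsewhere. The LFY gene, which specifies floral meristems, was low throughout. It was highest in flower bud at 1.09 FPKM, followed by root at 0.62 FPKM, and had 0.1 FPKM in flower. The 24 MIKC genes summed to 107 FPKM in root, 1382 FPKM in flower bud and 2072 FPKM in pericarp.

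The share of MYB-related genes detected in every tissue was close to that of all genes. An FPKM above 0 in at least 1 tissue was found for 58 of the 59 genes, and 50 reached 1 FPKM. In all 9 tissues 32 genes (54.2%) were above 0, beside 52.3% of all genes and 35.9% of the 117 MYB genes. The share was 50.1% for all transcription factor genes and 53.7% for the 41 genes of the GARP types (G2-like and ARR-B). At 1 FPKM or more in every tissue the shares were 49.2% of MYB-related genes, 46.3% of GARP genes and 40.2% of all genes. They were 38.1% of all transcription factor genes and 18.8% of MYB genes. By their highest value, 7 MYB-related genes reached 100 FPKM, 36 lay between 10 and 100 FPKM, 7 between 1 and 10 FPKM, 8 stayed under 1 FPKM, and Dlo_011903.1 was listed at 0 everywhere.

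**Figure D1:**
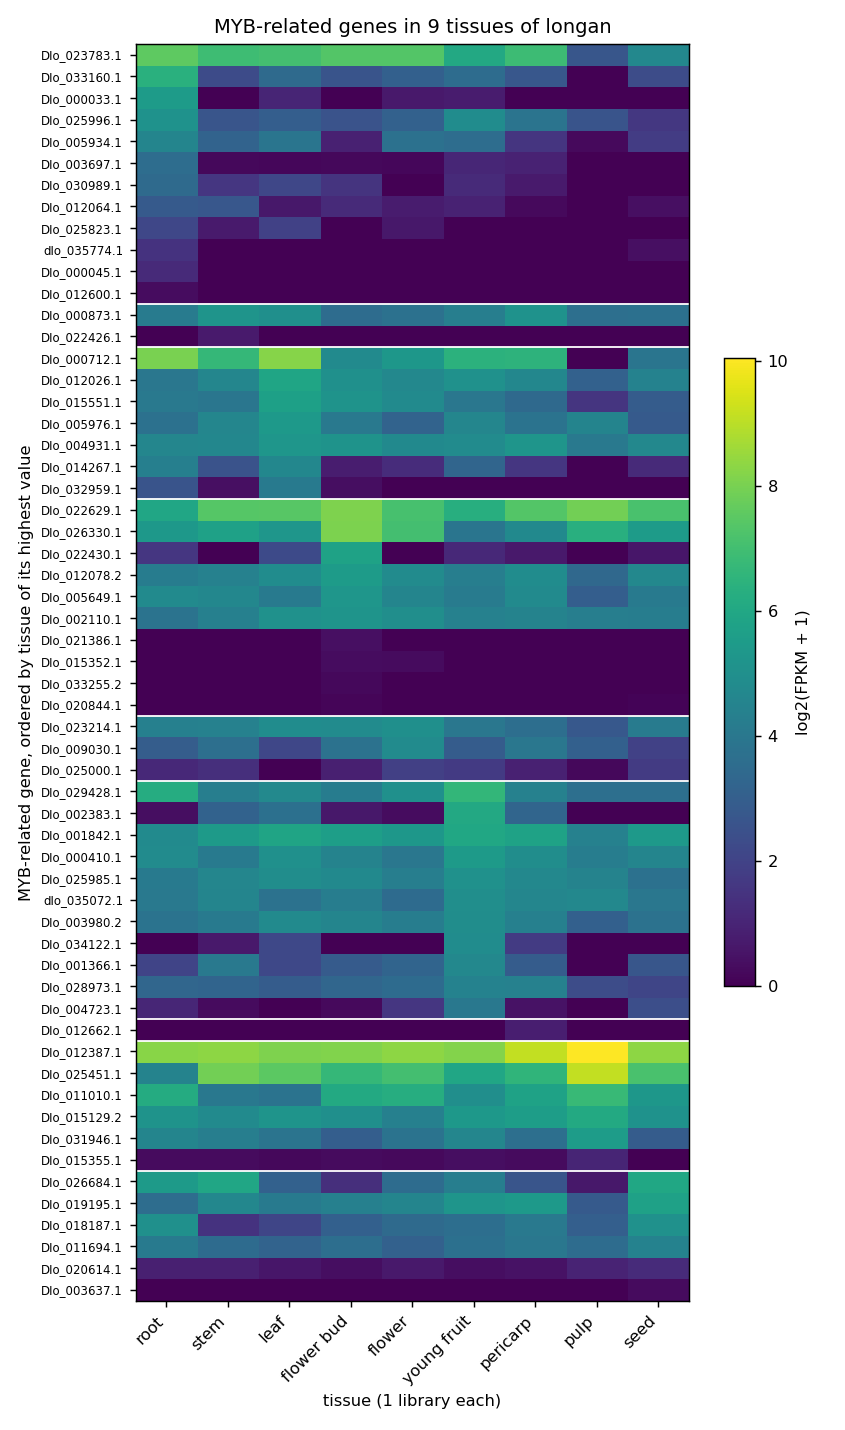
Level of the 58 MYB-related genes with a value above 0 in each tissue, as log2(FPKM + 1), with 1 library per tissue and genes grouped by the tissue of their highest value. The groups hold from 1 gene (pericarp) to 12 genes (root), and Dlo_012387.1 is bright in every column.

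The number of MYB-related genes above 0 was 50 in root, 49 in flower bud, 47 in stem, 46 each in leaf, young fruit and pericarp, 45 in flower, 43 in seed and 34 in pulp. Pulp thus had the fewest, at 57.6% of the 59 genes beside 64.4% of all genes, while root had the most, at 84.7% beside 74.0% of all genes. In pulp 59.4% of all transcription factor genes, 61.0% of GARP genes and 46.2% of MYB genes were above 0. In root these shares were 78.7%, 90.2% and 76.1%. At 1 FPKM or more pulp was again lowest (30 MYB-related genes) and root highest (46 genes). In pulp, unlike in seed, the summed level of the MYB-related genes ran the other way. It was 2411 FPKM in pulp, 1236 FPKM in seed, and between 1485 FPKM (young fruit) and 1818 FPKM (leaf) in the other 7 tissues. The genes took 0.251% of the FPKM total in pulp and from 0.130% (seed) to 0.206% (leaf) elsewhere. Among the 1529 transcription factor genes of the table they took 7.06% of the summed FPKM in pulp and from 2.30% (pericarp) to 4.69% (root) in the other tissues.

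A few genes carried the sum in pulp. The 5 highest genes of each tissue took 84.8% of it there, against 41.8% in young fruit to 60.9% in flower bud. For the MYB genes this share was also highest in pulp, at 68.3%, against 28.6% in root to 60.3% in flower bud. For the GARP types it was 64.1% in pulp and 64.9% in flower. For all transcription factor genes it was 12.2% in pulp and 16.3% in flower bud, and over all genes 9.38% in pulp and 11.1% in seed. Dlo_012387.1 alone took 44.0% of the MYB-related sum in pulp. Without this gene, an alternative chosen after seeing the data, pulp had 1349 FPKM, below leaf (1546 FPKM), flower bud (1513 FPKM) and root (1403 FPKM). With scaled libraries pulp stayed first without it, at 1605 FPKM beside 1563 FPKM in flower bud, so the place of pulp among the other genes depends on the scaling. The median over the 59 genes was 1.08 FPKM in pulp and lay between 4.35 FPKM (seed) and 15.0 FPKM (young fruit) in the other tissues.

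Dlo_012387.1, the gene with the SANT/Myb domain, had the highest level of all MYB-related genes in every tissue but leaf. It measured 1061 FPKM in pulp, 562 in pericarp, 326 in flower, 324 in seed, 322 in stem, 307 in root, 290 in young fruit, 284 in flower bud and 272 in leaf. The 7 tissues other than pericarp and pulp lay close together, and pulp was 1.89 times pericarp. In pulp it ranked 1 of the 1529 transcription factor genes and 91 of all genes. Its ranks among transcription factor genes were 9 in root, 10 in seed and from 31 (flower) to 49 (leaf) in the other 6 tissues.

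The second highest was Dlo_025451.1, which also peaked in pulp. Its levels were 553 FPKM in pulp, 239 in stem, 181 in leaf, 143 in seed, 132 in flower, 102 in flower bud, 94.7 in pericarp, 60.4 in young fruit and 21.8 in root. Pulp was 2.31 times stem, and root was the lowest tissue, 25.4 times below pulp. Where Dlo_012387.1 was even outside pericarp and pulp, Dlo_025451.1 differed widely among root, stem and leaf, and it gave the largest rise of any MYB-related gene from root to stem.

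Dlo_000712.1 was highest in leaf and root. It measured 302 FPKM in leaf, 257 in root and 102 in stem, against 86.8 in young fruit and 89.4 in pericarp, 38.8 in flower, 26.9 in flower bud and 14.2 in seed, and it was listed at 0 in pulp. In leaf it was the highest MYB-related gene. Listed values of 0 were frequent in pulp, since 1360 genes of the table were at 0 there and above 0 in the other 8 tissues, against 52 to 268 genes for the other tissues, and 30 of the 1360 genes were at 10 FPKM or more in all 8. A listed 0 may be a failed estimate and is not taken as absence.

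**Figure D2:**
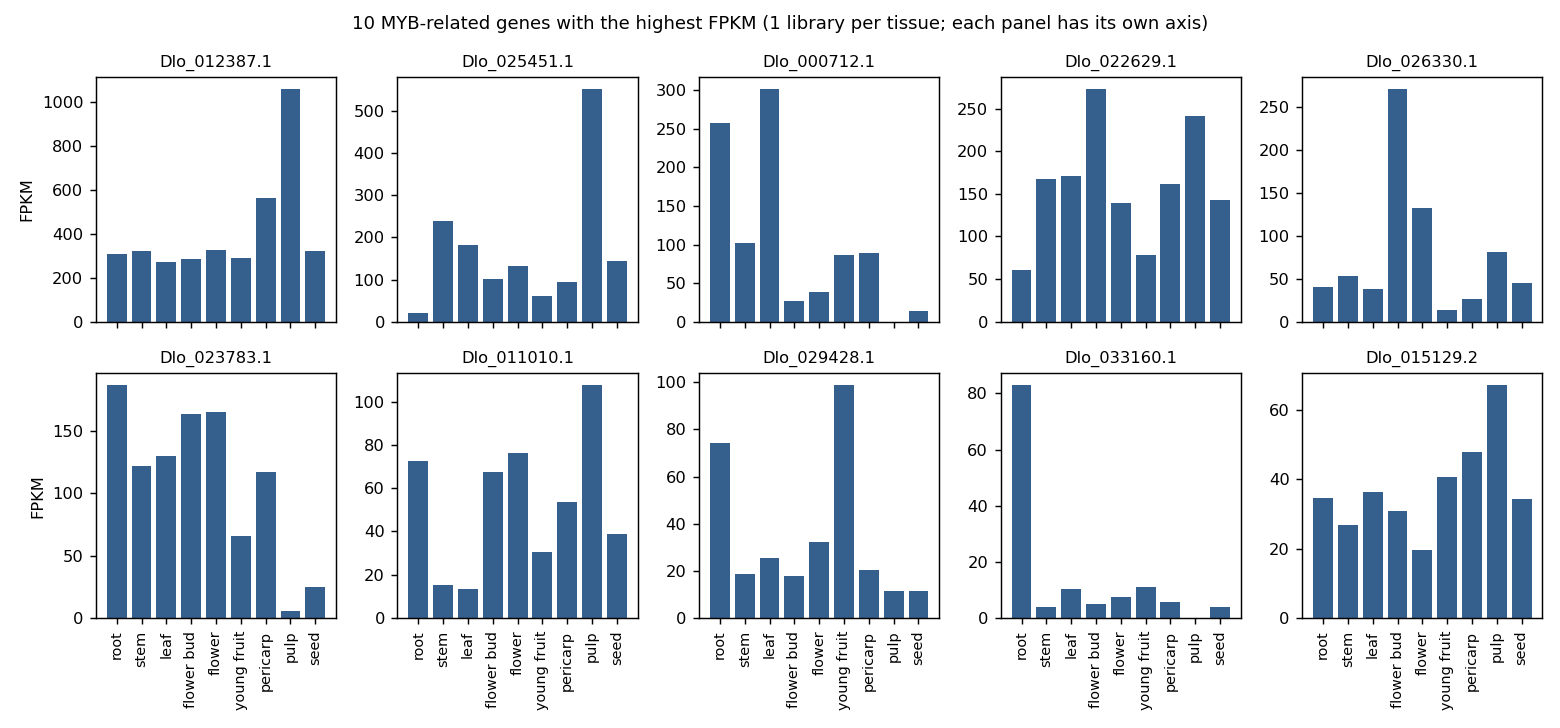
FPKM in each of the 9 tissues for the 10 MYB-related genes with the highest value in any tissue; each bar is 1 library and each panel has its own axis from 0. Dlo_012387.1, Dlo_025451.1, Dlo_011010.1 and Dlo_015129.2 are highest in pulp, while Dlo_000712.1 and Dlo_033160.1 are listed at 0 there.

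Flower bud held the peak of the next pair. Dlo_022629.1 measured 273 FPKM in flower bud, 241 in pulp, 171 in leaf, 167 in stem, 161 in pericarp, 142 in seed, 139 in flower, 78.7 in young fruit and 61.0 in root, and with scaled libraries pulp took first place. Dlo_026330.1 was more uneven. It had 271 FPKM in flower bud and 133 in flower, then 80.9 in pulp, 52.8 in stem, 45.1 in seed, 40.6 in root, 37.9 in leaf, 26.6 in pericarp and 14.0 in young fruit. Its fall from flower to young fruit, 9.50-fold, was the largest among MYB-related genes in that comparison (-3.16 on the log2 scale, -3.65 with scaled libraries).

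Of the other genes among the 10 highest, Dlo_023783.1 was low in pulp and seed. It measured 187 FPKM in root, 166 in flower, 163 in flower bud, 130 in leaf, 122 in stem and 117 in pericarp, then 65.5 in young fruit, 24.7 in seed and 5.53 in pulp. Dlo_011010.1 was high in pulp and low in stem and leaf, with 108 FPKM in pulp, 76.2 in flower, 72.5 in root, 67.3 in flower bud, 53.7 in pericarp, 38.6 in seed, 30.5 in young fruit, 15.4 in stem and 13.3 in leaf. Dlo_029428.1 was high in young fruit (98.8 FPKM) and root (74.0 FPKM), and lay between 11.6 FPKM (seed) and 32.2 FPKM (flower) in the other 7 tissues. Dlo_015129.2 was the most even of the 4, from 19.6 FPKM in flower to 47.8 FPKM in pericarp and 67.1 FPKM in pulp.

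Breadth was measured by tau, which is 0 for an even level over the 9 tissues and 1 for a level in a single tissue, on log2(FPKM + 1) and over the genes that reached 1 FPKM. The median tau was 0.33 for 50 MYB-related genes, 0.61 for 99 MYB genes, 0.40 for 37 genes of the GARP types (G2-like and ARR-B, which carry a related MYB-like domain), 0.46 for all transcription factor genes and 0.39 for all genes. A tau under 0.3, called broad here, was found for 22 MYB-related genes (44.0%), beside 39.5% of all genes and 14.1% of MYB genes. A tau of 0.9 or more, called restricted, was found for 4 MYB-related genes (8%), beside 9.02% of all genes and 17.2% of MYB genes. These shares describe lists of unequal size and were not tested. The counts depend on the scale, since on untransformed FPKM 1 gene was broad and 10 were restricted. That scale was not applied to all genes.

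**Figure D3:**
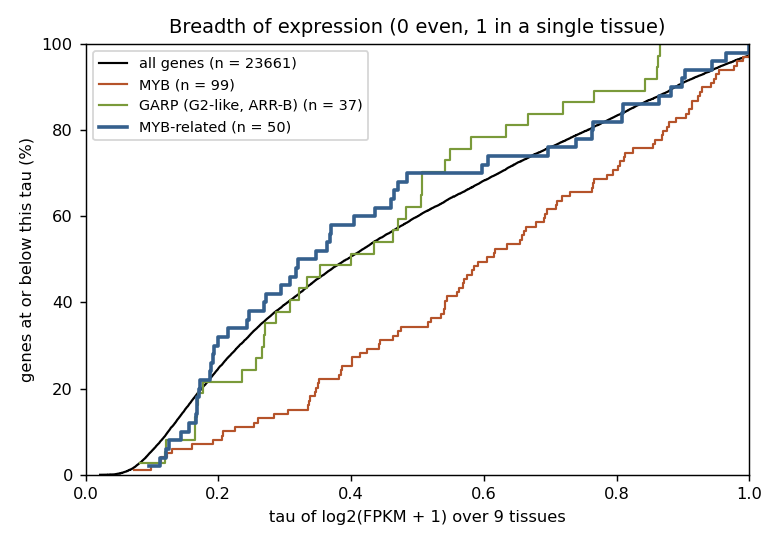
Cumulative share of genes against tau of log2(FPKM + 1), for genes that reached 1 FPKM in at least 1 of the 9 tissues. The line of the MYB-related genes (median 0.33) lies to the left of that of the MYB genes (median 0.61) over most of the range, and close to that of all genes (median 0.39).

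The most even genes were Dlo_004931.1, Dlo_001842.1 and Dlo_025985.1. Dlo_004931.1, with a tau of 0.10, measured 37.6 FPKM in leaf, 37.1 in pericarp, 34.9 in flower bud, 27.8 in young fruit, 26.6 in flower, 25.0 in seed, 24.5 in stem, 23.4 in root and 15.8 in pulp. Leaf and pericarp differed by 1.01 times, and pulp was lowest. Dlo_001842.1 ranged from 20.3 FPKM in pulp to 63.0 FPKM in young fruit, and Dlo_025985.1 from 32.6 FPKM in young fruit down to 12.5 FPKM in seed. Even these genes spanned 2.37 to 3.10 times between their lowest and highest tissues.

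By the tissue of the highest value, 12 genes peaked in root, 11 in young fruit, 10 in flower bud, 7 in leaf, 6 each in pulp and seed, 3 in flower, 2 in stem and 1 in pericarp. As shares of 58 genes these were 20.7% for root, 19.0% for young fruit, 17.2% for flower bud and 1.72% for pericarp, beside 16.8%, 14.7%, 10.03% and 8.32% of all genes. Leaf (12.1% beside 12.9%), seed (10.3% beside 11.5%), pulp (10.3% beside 11.96%) and flower (5.17% beside 6.75%) were closer to all genes. Stem was at 3.45% beside 7.06%. Of the 10 genes in flower bud, 4 had a highest value under 1 FPKM. With scaled libraries 51 genes kept their tissue and 7 moved, all of them genes whose 2 highest tissues differed by 1.01 to 1.22 times.

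Root held the restricted genes. Dlo_000033.1 measured 44.7 FPKM in root, 1.04 in leaf, 0.69 in young fruit and 0.62 in flower, and was listed at 0 in stem, flower bud, pericarp, pulp and seed. Root was thus 43.0 times the next tissue. Dlo_003697.1 had 11.1 FPKM in root, 1.10 in young fruit, 0.94 in pericarp, from 0.12 to 0.16 in stem, leaf, flower bud and flower, and 0 listed in pulp and seed. Dlo_000045.1 was listed with 1.32 FPKM in root and 0 elsewhere, and dlo_035774.1 with 1.81 FPKM in root, 0.34 in seed and 0 elsewhere. Dlo_033160.1, with a tau of 0.61, was present more widely but much higher in root, with 82.9 FPKM there, 10.9 in young fruit, 10.3 in leaf, 7.43 in flower, 5.57 in pericarp, 5.13 in flower bud, 4.07 in seed, 3.90 in stem and 0 listed in pulp.

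**Figure D4:**
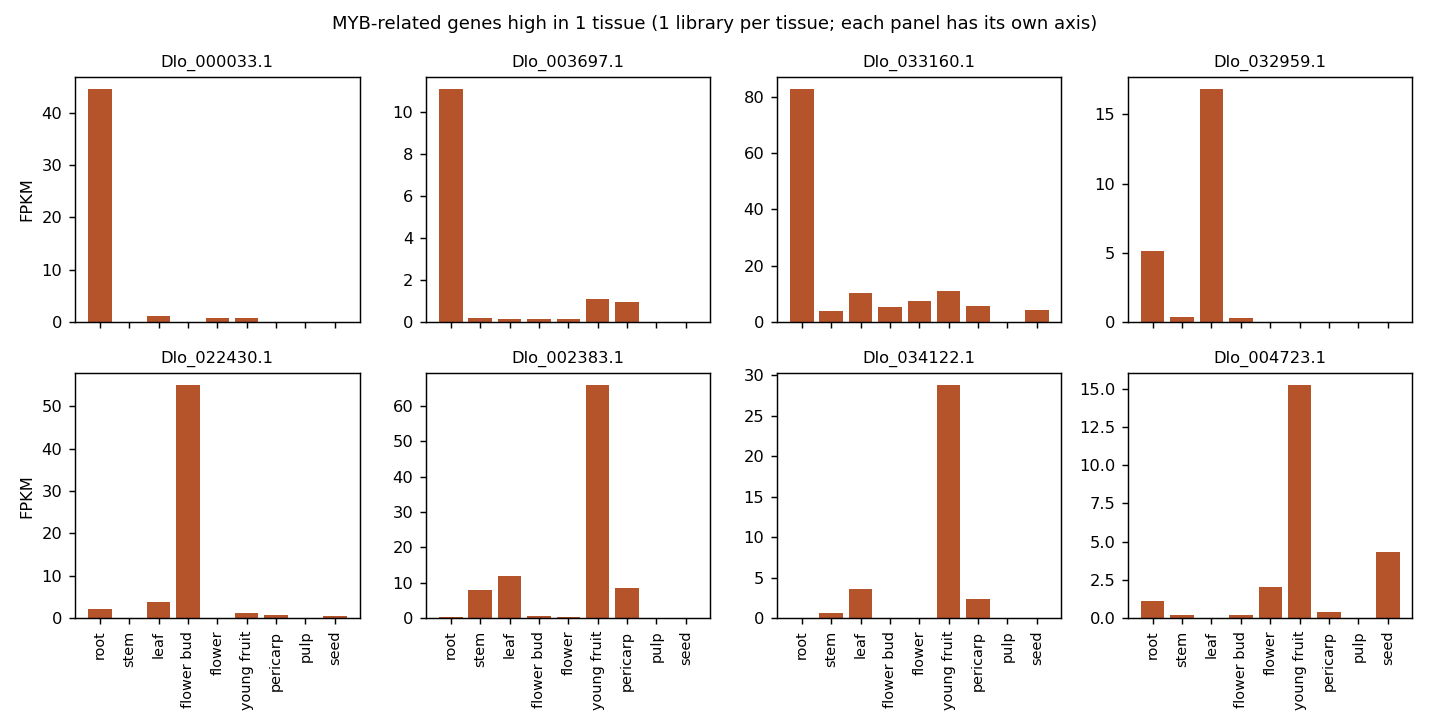
FPKM in each tissue for 8 MYB-related genes with 1 high tissue, chosen for the plot after their values were seen; each bar is 1 library and each panel has its own axis from 0. The high tissue is root for Dlo_000033.1, Dlo_003697.1 and Dlo_033160.1, leaf for Dlo_032959.1, flower bud for Dlo_022430.1 and young fruit for the last 3 genes.

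In the other tissues the genes with the highest tau were less extreme. Dlo_032959.1, the leaf gene, measured 16.9 FPKM in leaf, 5.11 in root, 0.32 in stem and 0.30 in flower bud, and was listed at 0 in flower and all 4 fruit tissues. Dlo_022430.1 had 55.0 FPKM in flower bud and at most 3.75 FPKM (leaf) in any other tissue, and it was listed at 0 in flower, stem and pulp. Dlo_034122.1 had 28.8 FPKM in young fruit, 3.53 in leaf, 2.35 in pericarp and 0.61 in stem, with 0 listed in the other 5 tissues. Dlo_002383.1 followed a like order, with 65.9 FPKM in young fruit, 12 in leaf, 8.59 in pericarp, 7.99 in stem, 0.55 in flower bud, 0.31 in root, 0.25 in flower and 0 listed in pulp and seed.

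The remaining tissues had no strongly restricted gene. In stem the gene was Dlo_000873.1, broad with 36.0 FPKM in stem and 33.8 in pericarp. In flower it was Dlo_025000.1 (2.71 FPKM, and 2.39 in seed), in pulp Dlo_015355.1 (1.08 FPKM, and 0.16 to 0.29 in 7 tissues) and in seed Dlo_020614.1 (1.35 FPKM, and 0.98 in pulp). No gene of at least 1 FPKM peaked in pericarp. In stem, flower and seed the first and second tissues of these genes differed by 1.06 to 1.38 times, so their order carries little weight without replicates.

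The 12 comparisons are the 11 that the study names and young fruit VS pericarp. Changed genes are those with a difference of 1 or more in log2(FPKM + 1), which is 2-fold on that scale, among genes above 0 in either tissue. The comparisons share libraries. From 15.7% (flower bud VS flower) to 65.2% (young fruit VS pulp) of the MYB-related genes changed. Their share was above that of all genes in 9 comparisons and below it in 3, while it was below that of the MYB genes in 10. It was also below that of all transcription factor genes in 9, and above that of the GARP types in 6 and below it in 6. In at least 1 comparison 48 of 58 MYB-related genes (82.8%) changed, beside 74.8% of all genes. The share was 81.8% for all transcription factor genes, 83.3% for MYB genes and 87.5% for GARP genes. Of the 10 MYB-related genes that changed in none, 9 never reached 2 FPKM and the other was Dlo_011694.1, at 7.62 FPKM in flower to 21.2 FPKM in seed.

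**Figure D5:**
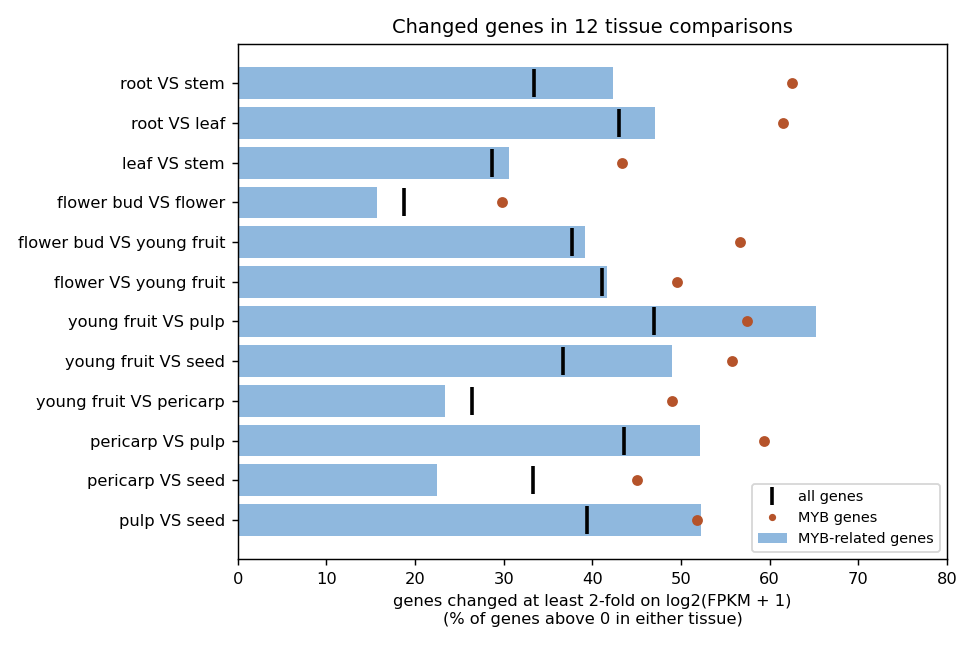
Share of genes changed at least 2-fold on log2(FPKM + 1) in each of 12 comparisons of 2 libraries, for the MYB-related genes (bars), the MYB genes (dots) and all genes (lines). The MYB-related share is highest in young fruit VS pulp at 65.2% and lowest in flower bud VS flower at 15.7%.

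In the counts that follow, a percentage in parentheses after a tissue is the share of all genes higher in that tissue. Among vegetative tissues, 22 of 52 genes changed in root VS stem, beside 33.4% of all genes, and 16 of the 22 were higher in root (18.6% of all genes) against 6 in stem (14.9%). In root VS leaf 24 of 51 changed (43.0% of all genes), 14 of them higher in root (24.8%) and 10 in leaf (18.2%). In leaf VS stem 15 of 49 changed (28.6% of all genes), 10 of them higher in leaf and 5 in stem. The whole table ran the other way, with 11.3% of all genes higher in leaf and 17.4% in stem. The largest rise from root to leaf was that of Dlo_002383.1, from 0.31 to 12 FPKM, and the largest fall that of Dlo_000033.1. From leaf to stem Dlo_026684.1 rose 7.76-fold, from 7.76 to 60.2 FPKM, and Dlo_032959.1 fell most.

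In the flower series, 8 of 51 genes changed in flower bud VS flower (18.8% of all genes), 5 of them higher in flower (7.51%) and 3 in flower bud (11.3%). With scaled libraries 7 were higher in flower (9.59%) and 2 in flower bud (9.46%). The largest rise was that of Dlo_005934.1, from 0.91 to 12.4 FPKM, and the largest fall that of Dlo_022430.1. In flower bud VS young fruit 20 of 51 changed (37.7% of all genes), 12 higher in young fruit (23.3%) and 8 in flower bud (14.5%). In flower VS young fruit 20 of 48 changed (41.1% of all genes), 14 higher in young fruit (28.5%) and 6 in flower (12.6%). These directions depend on scaling, since with scaled libraries 11 were higher in young fruit (17.7%) and 12 in flower bud (17.1%) in the former, and 8 were higher in young fruit (18.3%) and 10 in flower (17.5%) in the latter. The shares of all genes evened out likewise. Dlo_002383.1 rose most in both, to 65.9 FPKM (5.43 and 5.74 on the log2 scale, 5.15 and 5.43 with scaled libraries).

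Pulp gave the widest contrasts. In young fruit VS pulp 30 of 46 genes changed (46.9% of all genes), 25 with the higher level in young fruit (36.1%) and 5 in pulp (10.9%), or 21 (27.8%) and 7 (16.2%) with scaled libraries. The median difference over the 46 genes was -1.17 on the log2 scale, beside -0.55 over all genes, and -0.81 beside -0.25 with scaled libraries. In pericarp VS pulp 24 of 46 changed (43.5% of all genes), 21 of them higher in pericarp (30.3%) and 3 in pulp (13.2%), or 18 (26.0%) and 5 (17.1%) with scaled libraries. In pulp VS seed 23 of 44 changed (39.3% of all genes), 16 of them higher in seed (27.4%) and 7 in pulp (11.98%), or 15 (24.4%) and 10 (15.1%) with scaled libraries. Genes listed at 0 in pulp made 10 of the 25 that were higher in young fruit, 6 of the 21 higher in pericarp and 5 of the 16 higher in seed. Over all genes they made 2393 of 8685, 1896 of 7109 and 1869 of 6494. Against the general direction, Dlo_025451.1 was 9.15-fold higher in pulp than in young fruit and 5.84-fold higher than in pericarp, and Dlo_031946.1 was 7-fold higher in pulp (46.6 FPKM) than in seed (6.65 FPKM).

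For the other fruit tissues, 24 of 49 genes changed in young fruit VS seed (36.7% of all genes), 20 of them higher in young fruit (23.3%) and 4 in seed (13.4%). With scaled libraries these were 15 (18.7%) and 6 (16.1%) genes. In young fruit VS pericarp 11 of 47 changed (26.4% of all genes), 9 of them higher in young fruit (17.3%) and 2 in pericarp (9.15%), and with scaled libraries 8 were higher in young fruit (13.4%) and 6 in pericarp (10.8%). In pericarp VS seed 11 of 49 changed (33.3% of all genes), 8 of them higher in pericarp (17.9%) and 3 in seed (15.3%). From young fruit to pericarp Dlo_004723.1 fell most, from 15.3 to 0.41 FPKM, and Dlo_009030.1 rose most, from 6.63 to 14.7 FPKM (1.04 on the log2 scale), closely followed by Dlo_022629.1 (1.03). With scaled libraries their order changed (1.21 and 1.22).

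Dlo_026684.1 changed in 10 of the 12 comparisons, more than any other MYB-related gene. Its levels were 63.0 FPKM in seed, 60.2 in stem, 43.9 in root, 18.6 in young fruit, 10.7 in flower, 7.76 in leaf, 5.20 in pericarp, 1.58 in flower bud and 0.56 in pulp. Seed and stem were 1.05 times apart and cannot be ordered, whereas seed was 12.1 times pericarp and 112 times pulp. It gave the largest rise to seed from each of young fruit, pericarp and pulp.

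Root, stem and leaf were also set against pericarp, pulp and seed, parts of the fruit whose stage the labels do not give. Of 55 genes above 0 in any of the 6, 10 (18.2%) had all 3 fruit values below all 3 vegetative values with means at least 2-fold apart on log2(FPKM + 1), beside 4.06% of all genes and 12.5% of the MYB genes. None of the 55 had all 3 fruit values above, beside 2.15% of all genes. The 10 genes were Dlo_000712.1, Dlo_005934.1, Dlo_012064.1, Dlo_014267.1, Dlo_015551.1, Dlo_023214.1, Dlo_023783.1, Dlo_025823.1, Dlo_030989.1 and Dlo_032959.1. For all transcription factor genes the shares were 6.42% below and 2.54% above. With scaled libraries 9 genes were lower and 1 higher in the fruit tissues, beside 900 and 737 of 27323 over all genes. Without scaling the numbers over all genes were 1109 and 588. The organs are not replicates of each other, and this grouping was not tested.

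Among these 10 genes the separation was wide in some and narrow in others. Dlo_005934.1 had 8.23 to 23.0 FPKM in the vegetative tissues and 0.19 to 2.48 FPKM in the fruit tissues, Dlo_014267.1 had 4.92 to 24.3 FPKM against at most 1.98 FPKM, and Dlo_015551.1 had 14.5 to 51.9 FPKM against 1.94 to 9.86 FPKM. Dlo_023783.1 was close to overlap, with stem at 122 FPKM and pericarp at 117 FPKM. Dlo_025823.1 and Dlo_032959.1 were listed at 0 in all 3 fruit tissues.

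Over the 58 genes, the profiles of 2 tissues had a median Pearson's r of 0.84 on log2(FPKM + 1) across 36 pairs, beside 0.81 over all genes. These values are across genes, which are not independent replicates. Flower and pericarp were the most alike (0.93, beside 0.84 over all genes), followed by stem and pericarp (0.93, beside 0.91). The lowest values were those of pulp with root (0.61, beside 0.74), with young fruit (0.69, beside 0.79) and with leaf (0.71, beside 0.75). This order depends on the scale. On untransformed FPKM pulp and seed were the most alike (0.95, beside 0.10 over all genes) and root and flower bud the least (0.57, beside 0.29). By Spearman's rho stem and pericarp were the most alike (0.90, beside 0.90 over all genes).

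Several genes sat at the edge of detection. Values above 0 in 1 tissue alone were found for 7 genes (11.9%, beside 9.06% of all genes): Dlo_000045.1 with 1.32 FPKM and Dlo_012600.1 with 0.27 FPKM in root, Dlo_012662.1 with 0.79 FPKM in pericarp, Dlo_022426.1 with 0.66 FPKM in stem, Dlo_021386.1 with 0.32 FPKM and Dlo_033255.2 with 0.16 FPKM in flower bud, and Dlo_003637.1 with 0.24 FPKM in seed. Dlo_015352.1, the other gene with a described Myb domain, was listed with 0.26 FPKM in flower bud and 0.24 FPKM in flower and 0 elsewhere. Multiplied by the relative depth of the libraries, these values became 0.296 and 0.294, so the difference between them is that of the depth within rounding. Dlo_020844.1 had 0.09 FPKM in flower bud and 0.07 in seed.

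For 2 pairs of genes with ID numbers up to 10 apart values were listed. Dlo_022430.1 reached 55.0 FPKM in flower bud while Dlo_022426.1 had only its 0.66 FPKM in stem. Dlo_015352.1 and Dlo_015355.1 were both low, with 0.26 and 0.21 FPKM in flower bud and 0.24 and 0.19 FPKM in flower. Dlo_011903.1, listed at 0 throughout, follows Dlo_011902.1, which was not analysed here.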

How the data were processed

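RNA of 9 tissues of “SJM” was sequenced with Illumina chemistry, 1 library per tissue. The authors filtered reads (adaptors, low quality, rRNA, organelles), mapped what was left on the draft longan assembly with TopHat2 (version 2.0.10 in the submitters' processing notes) and deposited FPKM with 2 decimals. The tool that computed FPKM is not given in the sources used here.

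The column names gave the tissue. Depth per library was estimated only relative to root, as the commonest ratio of values above 0.2 FPKM in genes under 2 FPKM, within 0.03 on the log2 scale. Without counts there is no interval for counting error, and without replicates no test. Changes are on log2(FPKM + 1), which understates changes of low genes. Tau is the sum of 1 - x/max(x) over tissues, divided by the number of tissues less 1.

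Genes named are the 10 highest, the highest tau per tissue at 1 FPKM or more, the 3 lowest tau at 5 FPKM or more, genes above 0 in 1 tissue or in none, the largest rise and fall per comparison, IDs up to 10 apart, the 3 pairs of genes with the highest and lowest r, and the 2 genes with described domains; others were named after their values were seen. The genes, lists and rules were chosen with earlier results of these data known. The functions were tested on simulated data. Scripts ran under Python 3.11.15 with pandas 2.3.3, numpy 2.4.6 and matplotlib 3.10.9.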

Additional observations from a re-analysis of the deposited data

How the results depend on the processing

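No paired analysis was possible because no group had more than 1 library. The cause was not tested except where given. Among the counts, sums, tau and r recomputed under each setting, 112 values stayed within 1.5 times (0.1 for tau and r), 44 moved further and 1 changed sign. The numbers of genes above 0 per tissue and in all tissues stayed within 1.5 times at 0.1 and 1 FPKM.

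At a 4-fold limit, which by construction calls fewer, the counts were 17 for young fruit VS pulp, 11 for root VS leaf, 10 each for root VS stem and flower bud VS young fruit, 8 each for pulp VS seed and pericarp VS pulp, 7 each for young fruit VS seed and pericarp VS seed, 5 each for leaf VS stem, flower VS young fruit and young fruit VS pericarp, and 3 for flower bud VS flower. With a pseudocount of 5 FPKM they were 4 in flower bud VS flower, 7 in leaf VS stem, 7 in young fruit VS pericarp and 14 in pulp VS seed, and with 0.1 FPKM 13 in flower bud VS flower and 20 in pericarp VS seed. Only genes with 5 FPKM or more left 5 in flower bud VS flower. With the pseudocount of 5 FPKM the rise of Dlo_009030.1 from young fruit to pericarp fell under the limit (0.76 on the log2 scale). The settings of this paragraph were not applied to all genes, so its counts have no share of all genes beside them. They show only how the calls depend on the rule.

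Peaks moved to 5 in flower and 2 in pericarp with scaled libraries, and to 1 in stem, 6 in flower bud and 0 in pericarp at 1 FPKM or more. The median tau was 0.69 on untransformed FPKM and 0.23 on log2(FPKM + 0.1). Broad genes numbered 1 on untransformed FPKM, and restricted genes 10 on untransformed FPKM, 2 on log2(FPKM + 0.1) and 11 without the filter. Tau of all genes was not computed under these settings.

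Without the 5 genes of highest FPKM in any tissue the sums were 1023 FPKM in root, 954 in young fruit, 854 in leaf, 840 in flower bud, 766 in pericarp, 753 in flower, 707 in stem, 568 in seed and 475 in pulp. Without Dlo_012387.1, an alternative added after seeing the data, pulp had 1349 FPKM, and with scaled libraries besides, also added after, pulp had 1605 FPKM and pericarp 1083 FPKM. The median r between pairs of genes reversed to -0.0385 on untransformed FPKM. MYB-related genes higher in pericarp, pulp and seed than in vegetative tissues went from 0 to 1 with scaled libraries. Over all genes this number went from 588 to 737. The MYB-related count also went to 1 without pulp, an alternative added after seeing the data.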

Other observations

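Profiles over the 9 tissues were compared between MYB-related genes. Among the 50 genes that reached 1 FPKM there were 1225 pairs, with a median Pearson's r of 0.08 on log2(FPKM + 1). An r of 0.8 or more was found for 35 pairs (2.86%) and an r of -0.8 or less for 9 (0.735%). Over all pairs of the 23661 genes that reached 1 FPKM these shares were 1.67% and 0.747%, and over the pairs of 99 MYB genes 4.51% and 0.557%. The tissues share their libraries and depth, and the values are given as descriptions.

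The 3 highest values were those of Dlo_000033.1 with Dlo_000045.1 (0.97), Dlo_000045.1 with dlo_035774.1 (0.96) and Dlo_000045.1 with Dlo_003697.1 (0.94), all of them genes that peaked in root, with a Spearman's rho of 0.55 to 0.75. Dlo_000045.1 is in each pair and was above 0 only in root (1.32 FPKM). These values of r therefore rest on the root library and do not show a shared profile over the other tissues. Dlo_002383.1 and Dlo_034122.1, which both ran from young fruit through leaf to pericarp and stem, followed at 0.94, with a rho of 0.92. The lowest values were those of Dlo_025451.1 with Dlo_033160.1 (-0.92), Dlo_012078.2 with Dlo_031946.1 (-0.89) and Dlo_012387.1 with Dlo_023214.1 (-0.89, and -0.67 without pulp).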
